A study of Homo sapiens with 12 samples.

Results

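The induction of GCNF in undifferentiated human embryonic stem cells was read on 6 of the 12 oligonucleotide arrays of the series, 3 of cells given doxycycline (Dox) and 3 of untreated cells. The arrays were chosen by their titles alone. All cells were of the established human embryonic stem cell line H9, and all carried a Tet-on construct, in which Dox switches on expression of GCNF. The induced cells (d0 with Dox) had 1 µg/ml Dox for 4 days, and the untreated cells (d0) had none. Both were kept undifferentiated in mTeSR, a defined stem cell medium, on a coated surface. The other 6 arrays were of the same line after 6 days in serum medium with either 1 µg/ml Dox or 1 µM retinoic acid, and are used here for the spread between arrays and for the later levels of the genes described. Whether the line is 1 clone is not stated in the sources used here. Dox on cells without the construct was not analysed here, so effects of the drug and of GCNF cannot be told apart.

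GCNF, encoded by NR6A1, is a nuclear receptor with no established ligand. It binds direct repeats of the bases AGGTCA and acts on its targets mainly as a repressor. In the mouse it is known for shutting down Pou5f1 (Oct4) and Nanog when embryonic stem cells leave the undifferentiated state, and mouse embryos without it die in mid-gestation. Undifferentiated human cells depend on Nodal, activin and FGF signals, and the loss of Nodal signals is known to favour early neural fates over mesoderm and endoderm.

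The deposited values are linear intensities of probe sets, scaled so that each array has the same trimmed mean, and are relative to the rest of the array. A gene was read through 1 probe set, and 19775 genes were compared as log2(intensity + 16). Values below are intensities, given as mean ± SD over the 3 arrays of a group or array by array, and log2 fold changes are d0 with Dox over d0, ± SE. A gene is said to have risen or fallen where the adjusted p of limma's moderated test was under 0.05. The titles call each array a biological replicate, but no label says how cultures were kept apart. The p-values thus measure the spread among these arrays, and with 3 arrays in a group the precision is limited. The median intensity of an array lay between 71.6 and 78.0 in these 6 arrays, and replicate arrays correlated at 0.980 to 0.982 on the log2 scale with no identical pair.

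The induced gene was checked first. NR6A1 was read by 7 probe sets, of which 6 were higher with Dox. The probe set with the largest rise read 606, 660 and 580.1 with Dox, against 46.9, 19.5 and 14 at d0 (log2 fold change 3.96 ± 0.30, adjusted p = 6.36e-05). The brightest, which stands for the gene in the table of all genes, read 2710.1, 2715 and 3180.2 with Dox, against 1328, 1496 and 1548 at d0 (0.97 ± 0.15, adjusted p = 0.00437). Neither probe set had overlapping groups. The dimmest read 106, 108 and 109 with Dox, against 78.2, 12.3 and 13.1 at d0, and did not pass (1.54, adjusted p = 0.0871). In all 7 probe sets every array labelled with Dox stood above every array at d0, so the labels of these 6 arrays were not contradicted. No source used here says which of the probe sets detect the construct.

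With Dox 2552 genes were called, or 12.9% of those tested. Of these 1532 (7.75%) rose and 1020 (5.16%) fell, and 226 rises (1.14%) and 139 falls (0.703%) were at least 2-fold. For 31.5% of genes all 3 arrays with Dox lay on the same side of all 3 at d0. This held for 1525 of the 1532 rises and 1019 of the 1020 falls, so in a called gene it adds little to the call. Most calls were small. The median rise was 1.45-fold, with 868 of the rises under 1.5-fold and 33 at 4-fold or more, and the median fall was 1.43-fold, with 591 under 1.5-fold and 5 at 4-fold or more. The called rises had a median intensity of 848 with Dox and 540.1 at d0, and the falls 850.2 with Dox and 1318 at d0. The falls were thus brighter at d0 only, and with Dox the medians were alike. The balance of rises and falls depended on how arrays were levelled. After centring each array on its median gene there were 1134 rises and 1482 falls, so that 43.3% of calls were rises, against 60.0% as scaled. Counts of lists with few calls also moved when single arrays were left out, and the range over these 6 fits is given beside most counts that moved by over 1.5 times. All list counts below are to be read beside the shares over all genes, 7.75% higher and 5.16% lower. In these bulk samples, fewer cells of a type and less RNA per cell cannot be told apart.

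A mark of RNA quality moved with the groups. The ratio of the 3′ to the 5′ probe set of ACTB was 3.86 ± 0.0111 with Dox and 3.24 ± 0.139 at d0, without overlap, and that of GAPDH was 1.62 ± 0.0554 with Dox and 1.53 ± 0.0577 at d0, with overlap. Its part in the results below was not tested.

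**Figure D1:**
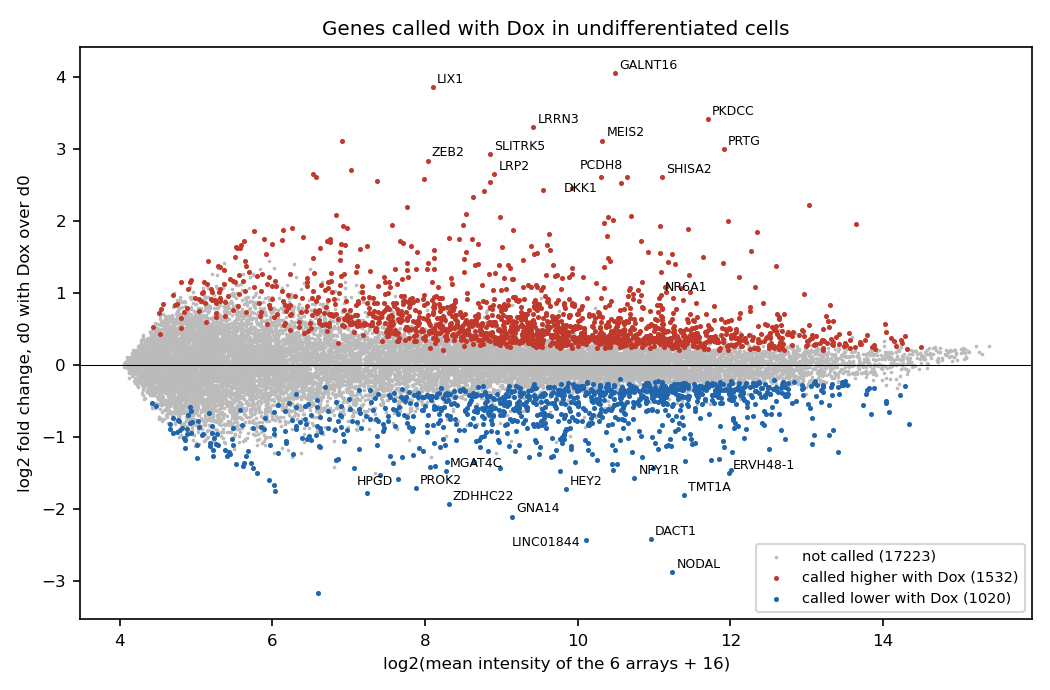
Log2 fold change of each of 19775 genes (d0 with Dox over d0, y axis) against the log2 of its mean intensity over the 6 arrays plus 16 (x axis). Red points were called higher (1532), blue points lower (1020) and grey points were not called. The named points are NR6A1 and the 12 largest rises and 12 largest falls among genes whose higher mean reached that of the median gene, from GALNT16 at 4.05 to NODAL at -2.87.

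GALNT16, an enzyme that starts O-linked glycosylation, rose most and NODAL, the TGF-beta family ligand, fell most among called genes with no overlap between groups and a higher mean at or above that of the median gene. The stretch nearest to the binding sequence of the receptor in their promoters is shown beside that of NANOG, and of CDC25B and TES, which hold a match. Sequences are RefSeq's, build GRCh38.p14, on the strand of the gene, 5′ to 3′, and capitals mark the stretch compared with the repeat.
GALNT16, chr14:69260051-69260122: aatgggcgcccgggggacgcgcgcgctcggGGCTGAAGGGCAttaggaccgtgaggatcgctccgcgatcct
NODAL, chr10:70441798-70441869: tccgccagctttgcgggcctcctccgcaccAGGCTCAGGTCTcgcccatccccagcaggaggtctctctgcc
NANOG, chr12:7789258-7789329: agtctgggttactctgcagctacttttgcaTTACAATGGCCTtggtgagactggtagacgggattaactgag
CDC25B, chr20:3799982-3800047: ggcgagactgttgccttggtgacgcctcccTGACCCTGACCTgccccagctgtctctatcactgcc
TES, chr7:116210323-116210394: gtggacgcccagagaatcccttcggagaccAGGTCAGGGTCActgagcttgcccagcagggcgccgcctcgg
The motif was AGGTCA repeated once with no gap, on either strand, with at most 1 base changed. In GALNT16, NODAL and NANOG the nearest stretch before the start differed from the repeat at 4 of 12 bases. The median over all genes was also 4, but over whole windows, which reach 50 bases past the start. The nearest stretch lay 77 to 66 bases before the start in GALNT16, 158 to 147 in NODAL and 114 to 103 in NANOG. In NANOG it is the other strand that is near the repeat. CDC25B, a phosphatase that starts mitosis, holds the motif 36 to 25 bases before its start on the other strand, and TES, a focal adhesion protein, 186 to 175 bases before. CDC25B rose (0.66 ± 0.11, adjusted p = 0.00483) and TES fell (-0.33 ± 0.071, adjusted p = 0.0127), and both were picked after their values were seen. The call of TES was lost without the second array with Dox (adjusted p = 0.0507) and on the mean of its probe sets (0.985). Windows of 250 bases before to 50 after a start were held for 15382 of the genes, 21485 windows in all. The motif stood in 41 of these genes (0.267%), in 2 of 1247 rises and in 1 of 795 falls. A 9-base form, TCA followed by AGGTCA with no change allowed, which contains the 6 bases of the repeat, stood in 54 genes (0.351%), in 0 of the rises and in 1 of the falls. Of the 50 largest changes 36 had a window, and 0 of these held either form. No match says only that these letters are not in these windows.

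Among the 25 largest rises were several proteins of the cell surface. LRP2, the endocytic receptor megalin, read 849.6, 785 and 795 with Dox, against 110.0, 95.1 and 146 at d0, a log2 fold change of 2.65 ± 0.16. SHISA2, which holds WNT and FGF receptors in the endoplasmic reticulum, read 3505, 3578 and 4249 with Dox, against 588, 581 and 639 at d0 (2.61 ± 0.098). DLK1, an imprinted transmembrane protein related to Notch ligands, read 2813, 2556 and 2632 with Dox, against 679, 602 and 588 at d0 (2.07 ± 0.21). In each of them all arrays with Dox lay at least 2-fold above all arrays at d0. TMEM88, an inhibitor of WNT signalling that binds Dishevelled, rose 5.31-fold, and SDK2, a homophilic adhesion protein of synapses, rose 5.51-fold. Smaller again were the rises of DYRK3, a kinase that dissolves stress granules (5.04-fold), FNDC5, the precursor of irisin (4.58-fold), and LIMCH1, an activator of nonmuscle myosin (4.29-fold). GREB1L, a developmental gene of kidney and inner ear, rose 5.81-fold. TTYH1, of a family of neural membrane proteins, read 411, 425 and 411 with Dox, against 61.7, 70.9 and 39.8 at d0 (2.58 ± 0.44, adjusted p = 0.00409), and its call was lost with a pseudocount of 1 (adjusted p = 0.0601). Long noncoding transcripts were among these rises. SOX2-OT, which overlaps SOX2, read 1137, 1275 and 1312 with Dox, against 199, 269 and 188 at d0, and MIR124-2HG, a host transcript of a neuronal microRNA, read 280.4, 259 and 259 with Dox, against 20.1, 36.9 and 42.0 at d0 (2.44 ± 0.17 and 2.55 ± 0.21). The mature microRNA was not measured.

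Rank by rank, the 25 largest falls were smaller than the 25 largest rises. MYC, the growth-promoting transcription factor, read 1071, 984 and 1193 with Dox, against 2938, 2615 and 3262 at d0, a log2 fold change of -1.43 ± 0.11. ETS2, a transcription factor of the ETS family, read 736, 799.9 and 851 with Dox, against 2147, 1998 and 2132 at d0 (-1.38 ± 0.084). In both the lowest d0 array stood far above the highest array with Dox. Among membrane proteins, NPY1R, a receptor of neuropeptide Y, read 809, 813 and 894 with Dox, against 2426, 3128 and 2098 at d0 (-1.57 ± 0.14), with the d0 arrays spread more widely than those with Dox. ICAM3, an adhesion ligand of leukocyte integrins, fell 2.75-fold, GPR160, an orphan receptor, 2.59-fold, and SLC47A1, an exporter of organic cations, 2.69-fold. IL6R, the receptor of interleukin 6, fell 2.67-fold. Enzymes were also lower. ALDH3A2, which oxidises fatty aldehydes, read 2140.4, 2004 and 2424 with Dox, against 6019, 6083 and 5937 at d0, HPGD, which inactivates prostaglandins, fell (-1.58 ± 0.15), and MGAT4C, which branches N-glycans, fell 2.77-fold. ERVH48-1, a retroviral envelope gene whose product suppresses syncytin-driven cell fusion, read 2172, 2111 and 2011 with Dox, against 6171, 5624 and 6038 at d0 (-1.50 ± 0.14). Of the 50 largest changes 31 had another probe set, with every other one in the same direction for 26 and none called against. The exceptions, with another probe set going the other way, were NODAL, DYRK3, SDK2, ZDHHC22 and TMT1A. The falls of ZDHHC22 and SPRY4-IT1 were lost on the mean of their probe sets (adjusted p = 0.161 and 0.178). That of PROK2 was lost on leaving out any array other than the second with Dox (adjusted p of 0.0560 to 0.0839), and that of ADAMTS8 on leaving out any of the 6 (0.0588 to 0.125). Both were also lost with a pseudocount of 1, and that of ADAMTS8 with the replicate block. Over all alternatives the adjusted p reached 0.2056 for PROK2 and 0.1995 for ADAMTS8. SPRY4-IT1 lies within SPRY4, which also fell (-0.84), so their signals may not be separate.

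**Figure D2:**
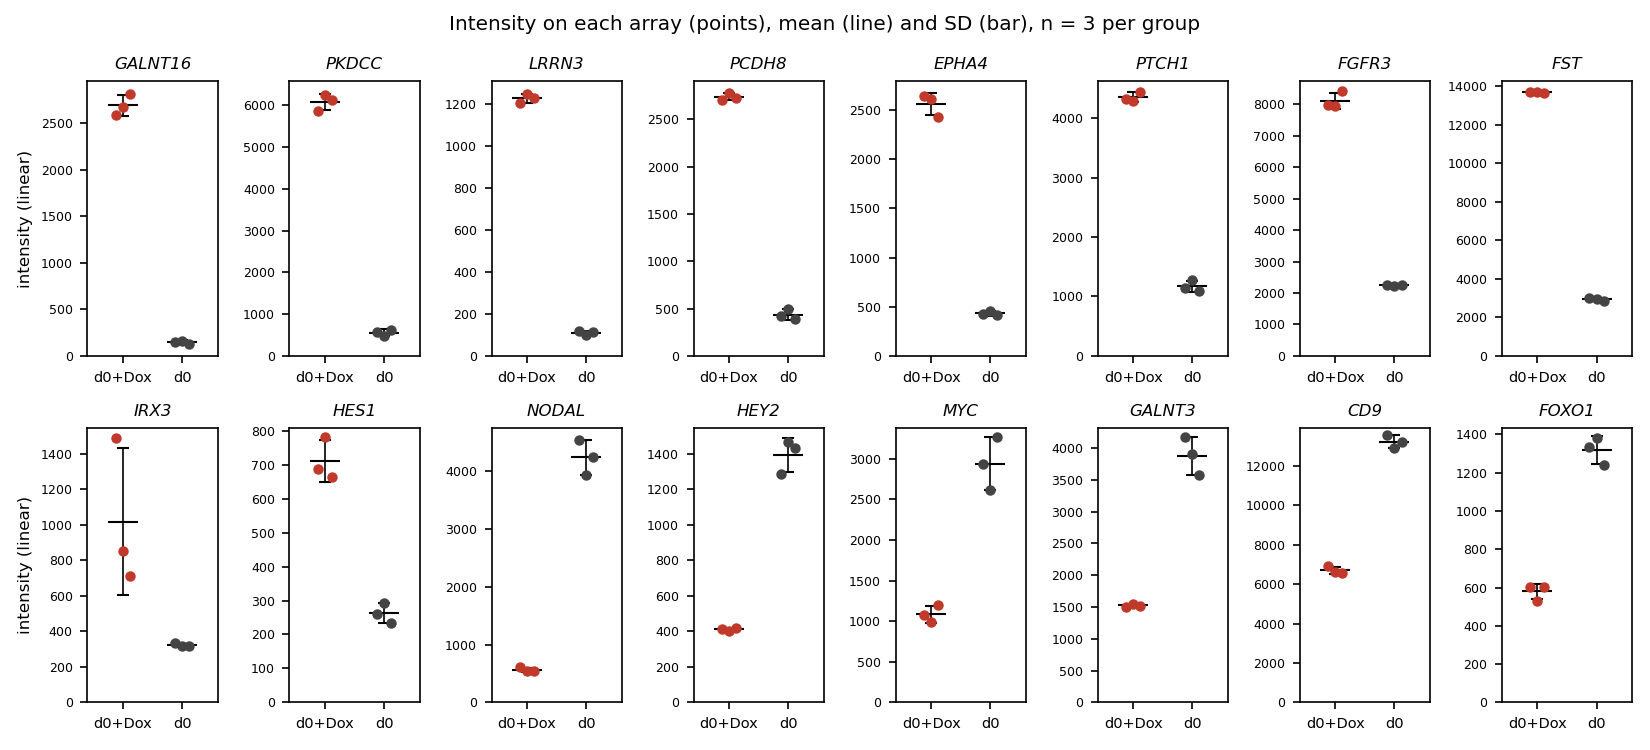
Linear intensity of 16 genes on each of the 3 arrays with Dox (red, left) and the 3 at d0 (grey, right), with the mean as a line and the SD as a bar, each axis starting at 0. All 16 are called genes, and the groups do not overlap in any of them, as in 1525 of 1532 called rises and 1019 of 1020 called falls. The arrays of IRX3 with Dox spread most widely, at 1486, 853 and 709.

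On the linear scale, where abundant transcripts weigh most, the largest gains were those of SFRP1, FST, FGFR3, FZD7 and PRTG. FZD7, a WNT receptor of stem cells, read 19366, 20854 and 19715 with Dox, against 13671, 13592 and 12907 at d0, which is 1.49-fold. The largest losses were those of LEFTY1, POU5F1P4, POU5F1B, L1TD1 and CD9. L1TD1, an RNA-binding protein of pluripotent cells that derives from a transposon, read 11734, 10759 and 11343 with Dox, against 18038, 17798 and 18229 at d0 (-0.68 ± 0.074). CD9, a surface tetraspanin of stem cells, read 6909.6, 6637 and 6578 with Dox, against 13562, 12918 and 13178 at d0, and its call was lost on the mean of its probe sets (adjusted p = 0.104). LEFTY1 has a near-identical neighbour, LEFTY2, and POU5F1P4 and POU5F1B are near-identical copies of POU5F1, so those values may be shared between copies.

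Nodal and activin signals work through type I and type II receptors and SMAD2 and SMAD3, and induce their own antagonists. Of 21 genes of this pathway, 3 rose and 6 fell, with a median log2 fold change of -0.11, against 0.025 over all genes. Both named ligands fell. GDF3, a ligand that shares the receptors of Nodal, read 616, 555 and 482 with Dox, against 1423, 1312 and 1524 at d0 (-1.34 ± 0.23, adjusted p = 0.00437). LEFTY1, an antagonist induced by Nodal, read 15224, 14617 and 15148 with Dox, against 26618, 23665 and 29253 at d0 (-0.82 ± 0.14), and PMEPA1, another antagonist and target, read 1017, 1060.0 and 1092 with Dox, against 2478, 2556 and 2696 at d0 (-1.27 ± 0.078). Against these, FST, the secreted antagonist follistatin that binds activin, read 13698, 13704 and 13676 with Dox, against 2995, 2942 and 2869 at d0 (2.22 ± 0.065, adjusted p = 8.89e-08), with the arrays of each group almost alike. The receptors ACVR1B and ACVR2B, the other rises, had small changes (0.35 and 0.27), and their calls were unstable. That of ACVR1B was lost without the second or the third array with Dox or the first or the second at d0 (adjusted p of 0.0502 to 0.0658), and that of ACVR2B without the first or the third with Dox or the first at d0 (0.0597 to 0.0784). Leaving out the third array with Dox or the first at d0 left 1 rise, and all 6 falls.

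BMP signals work through SMAD1, SMAD5 and SMAD9 and induce the ID genes. Of 23 genes 8 rose (34.8%, against 7.75% of all genes) and 0 fell (against 5.16%), with a median of 0.26. The ligand BMP5 was dim and read 157, 176 and 182 with Dox, against 51.5, 41.9 and 36.4 at d0 (1.67 ± 0.12), and the ligand BMP4 read 895, 981 and 1116 with Dox, against 476, 388 and 530.0 at d0 (1.08 ± 0.12). The extracellular antagonist CHRD, or chordin, read 131, 99.1 and 127 with Dox, against 31.9, 45.1 and 22.0 at d0 (1.48 ± 0.17). Ligands and an antagonist were thus higher together. Targets rose too: ID4 (1.93 ± 0.090), ID3 (1.58 ± 0.074) and ID2, which read 5296, 5575 and 5809 with Dox, against 2034, 2134 and 2064 at d0. ID1, the other ID gene, had means of 6866 with Dox and 7367 at d0 and did not pass (-0.11, adjusted p = 0.493). BMP4, CHRD, ID2 and ID1 were named after their values were seen.

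FGF and ERK genes moved in both directions, with 6 rises and 8 falls among 28 (median -0.32). FGF receptors were among the rises. FGFR3 read 7969, 7965 and 8421 with Dox, against 2259.8, 2222 and 2242 at d0 (1.85 ± 0.084) and FGFR1 read 7574, 6817 and 6513 with Dox, against 3275, 3258 and 3250.4 at d0 (1.09 ± 0.098). Among the falls were FGF ligands. FGF19 read 160.1, 150.3 and 176 with Dox, against 370.1, 351.1 and 356 at d0 (-1.07 ± 0.18) and FGF8 read 58.8, 59.6 and 99.4 with Dox, against 254, 189 and 264 at d0 (-1.52 ± 0.25). Both calls were lost with a pseudocount of 1 (adjusted p of 0.104 and 0.0778). Both genes were near the floor on the day 6 arrays, which enter the spread. FGF19 had means of 4.95 on the Dox-labelled and 14.3 on the RA-labelled arrays, and FGF8 of 8.27 and 4.85. The part of this in the lost calls was not tested. Genes that ERK induces divided. EGR1, an immediate early factor, read 829.7, 932 and 921 with Dox, against 323, 305 and 319.9 at d0 (1.45 ± 0.070), whereas IER3, another immediate early gene, read 1831, 1729 and 1771 with Dox, against 3375, 3046 and 3466 at d0 (-0.88 ± 0.076). SPRY4, a feedback inhibitor, read 463, 522 and 498 with Dox, against 838, 913 and 939 at d0 (-0.84 ± 0.10), and DUSP6, an ERK phosphatase, did not pass (-0.21, adjusted p = 0.229). SPRY4 and DUSP6 were named after their values were seen.

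Notch genes went both ways. Of 26, 6 rose and 4 fell (median 0.28), and 4 and 4 after centring on the median gene. Both HEY repressors fell, HEY2 at 412, 399.7 and 419 with Dox, against 1286, 1467 and 1429 at d0 (-1.72 ± 0.095) and HEY1 at 411, 479.9 and 445 with Dox, against 1283, 1135 and 1363 at d0 (-1.47 ± 0.087). HES1, a repressor that also acts downstream of Notch, read 686, 781 and 663 with Dox, against 262, 292 and 233 at d0 (1.39 ± 0.12). LFNG, the glycosyltransferase that modifies Notch receptors, read 681, 655 and 801 with Dox, against 307, 251 and 347 at d0 (1.20 ± 0.13). The HEY and HES1 values went opposite ways. MAML2, a coactivator of Notch, fell slightly (-0.40 ± 0.082), a call that was lost on the 6 arrays alone (adjusted p = 0.0514).

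Of the Hedgehog genes several rose. Hedgehog ligands are bound by PTCH1 with the coreceptors GAS1, BOC and CDON, and act through GLI factors. Of 16 genes 6 rose (37.5%, against 7.75% of all genes) and 0 fell (against 5.16%), with the largest median of the signalling lists (0.41). All 3 coreceptors were called higher, CDON not without the second or the third array with Dox (adjusted p up to 0.0634) nor on the mean of its probe sets (0.315). GAS1 read 2121, 2306 and 2047 with Dox, against 545, 494 and 487 at d0 (2.05 ± 0.12), BOC read 575, 516 and 469 with Dox, against 144, 143 and 143 at d0 (1.75 ± 0.12) and CDON read 608, 748 and 775 with Dox, against 520.0, 528 and 505 at d0 (0.44 ± 0.098). PTCH1, both receptor and target, read 4320.2, 4293 and 4447 with Dox, against 1149, 1275 and 1087 at d0 (1.88 ± 0.070, adjusted p = 3.76e-07). GLI3 rose (0.65 ± 0.070). The target GLI1 had means of 159 with Dox and 151 at d0 and did not pass (0.047, adjusted p = 0.947), and the ligand SHH was near the floor, at 27.9 with Dox and 24.6 at d0. CDON, GLI3, GLI1 and SHH were named after their values were seen.

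**Figure D3:**
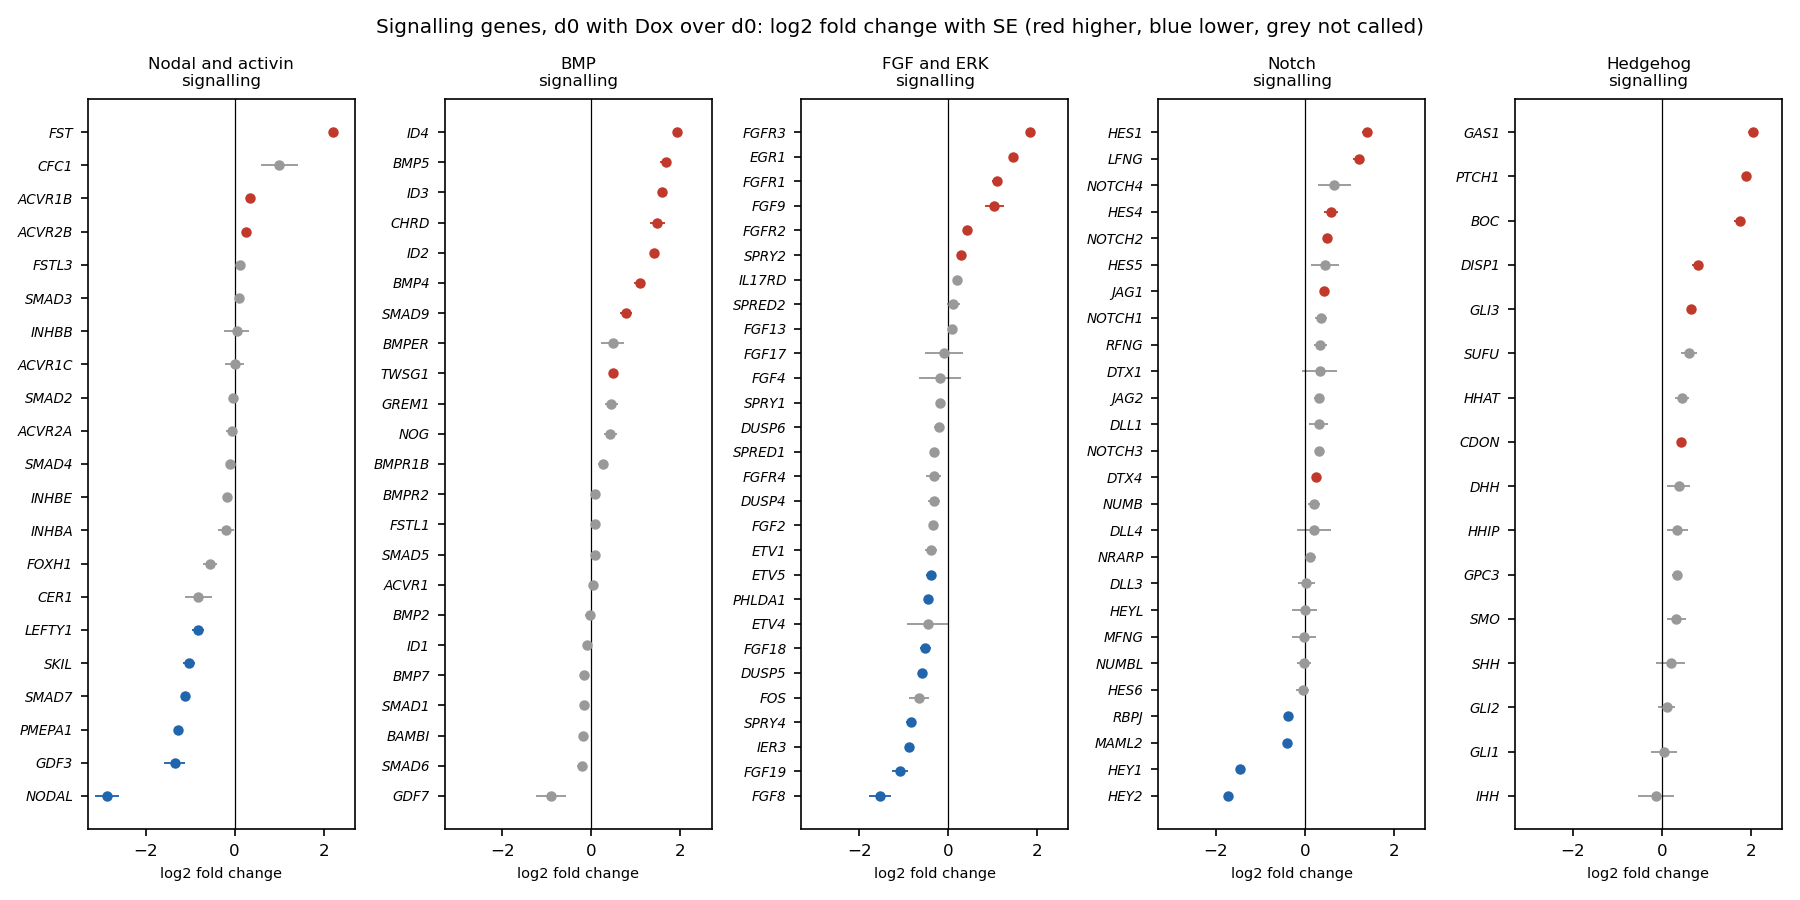
Log2 fold change (d0 with Dox over d0) of each measured gene of 5 signalling lists, with the SE as a bar. Red genes were called higher, blue lower, and grey not called. The lists run from 3 rises and 6 falls in Nodal and activin signalling to 6 rises and 0 falls in Hedgehog signalling.

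In the IGF system 3 of 17 genes rose and 3 fell (median -0.078; 1 to 4 rises with 1 array left out), and the binding proteins went both ways. IGFBP7 read 3123, 2937 and 2781 with Dox, against 4969, 6017 and 5347 at d0 (-0.88 ± 0.087) and IGFBP3 read 1126, 1247 and 1093 with Dox, against 1968, 2157 and 1962 at d0 (-0.80 ± 0.17), whereas IGFBP2 read 8775, 9736 and 8751 with Dox, against 6774, 6972 and 6737 at d0 (0.41 ± 0.067). G protein subunits held 2 rises and 2 falls among 38 (1 rise with any 1 array left out, and 1 rise and 5 falls after centring on the median gene), led by GNA14, a subunit of the Gq class that fell 4.29-fold. RGS proteins, which shorten G protein signals, held 3 rises and 0 falls among 20 (2 to 3 and 0 to 1 with 1 array left out), of which RGS5 read 1252, 1484 and 1285 with Dox, against 743, 776 and 741 at d0 (0.81 ± 0.080). Chemokines and their receptors held 1 rise and 2 falls among 57 (1 to 2 of each with 1 array left out), and interferon response genes 3 rises and 1 fall among 28 (2 to 3 and 0 to 1). BST2, an interferon-induced tether of virus particles, read 7789, 7372 and 7964 with Dox, against 5102, 4505 and 5219 at d0 (0.64 ± 0.093).

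Homeobox factors of the TALE class had the highest share of rises of the 57 lists. This class of MEIS, PBX, PKNOX, IRX and TGIF proteins acts beside HOX proteins and in patterning of the neural plate. Of 15 genes 9 rose and 2 fell (median 0.55, and 8 and 2 after centring on the median gene). IRX1 read 471, 315 and 312 with Dox, against 117, 127 and 131 at d0 (1.41 ± 0.15), and IRX3 read 1486, 853 and 709 with Dox, against 333, 317 and 319.8 at d0 (1.53 ± 0.24, adjusted p = 0.00291). In both the first array with Dox stood above the other two, and no array with Dox reached down to those at d0. MEIS2 rose most (3.12 ± 0.13). PKNOX1, a partner of PBX proteins, read 488, 511 and 486 with Dox, against 742, 764 and 746 at d0 and was the larger of the falls (-0.59 ± 0.085). The other fall, TGIF1, a corepressor of SMAD2 (-0.35), was lost without the first or the third array with Dox or the second at d0 (adjusted p of 0.0517 to 0.0561).

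SOX factors held 5 rises and 1 fall among 19 (median 0.029), with 3 rises on leaving out any 1 array. SOX11, a factor of immature neurons and embryonic tissue, read 4856, 4411 and 4789 with Dox, against 1603, 1630.5 and 1727 at d0 (1.49 ± 0.072), and SOX5 read 326, 336 and 350.3 with Dox, against 95.6, 129.6 and 87.5 at d0 (1.57 ± 0.14). The rise of SOX2 (0.35) was lost in each of those 6 fits (adjusted p of 0.0777 to 0.135). Among 19 factors of the ZIC, OTX, LHX and sine oculis families 3 rose and 0 fell, of which OTX2, of anterior ectoderm and primed stem cells, read 4478, 4628 and 4308 with Dox, against 2466, 2627 and 2485 at d0 (0.82 ± 0.12). Of 39 forkhead factors 3 rose (7.69%) and 2 fell (5.13%), about the shares over all genes (1 and 4 after centring on the median gene, and 1 to 3 rises and 2 to 4 falls with 1 array left out). FOXO1, a factor restrained by insulin signals, read 606, 532 and 602 with Dox, against 1334, 1382 and 1241 at d0 (-1.17 ± 0.088), and FOXO6, of the same family, read 339, 317 and 362 with Dox, against 174, 167 and 204 at d0 (0.85 ± 0.098). KLF and SP factors held 3 rises and 2 falls among 25, but 0 to 2 rises with 1 array left out and 1 rise and 3 falls after centring on the median gene. Nuclear receptors, NR6A1 included, held 3 (8.11%) and 2 (5.41%) among 37, again about the shares over all genes (2 to 4 and 0 to 3 with 1 array left out). ESRRG, an orphan receptor, read 294, 321 and 343 with Dox, against 178, 124 and 165 at d0 (0.98 ± 0.19). Genes named ZNF moved at about the rate of all genes, with 29 rises and 23 falls among 466 (17 and 31 after centring on the median gene, and 13 to 24 rises with 1 array left out). ZNF521, a factor that promotes neural fate in mouse stem cells, read 492, 621 and 591 with Dox, against 229, 232 and 164 at d0 (1.39 ± 0.15), and ZNF398 read 1245, 1443 and 1297 with Dox, against 2566, 2679.5 and 2760.4 at d0, a 2.0-fold fall.

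Receptors and ligands of axon guidance and cell sorting were called higher more often than lower, as were all genes (7.75% and 5.16%). Ephrins and Eph receptors, which signal between touching cells, counted 7 rises (33.3%) and 0 falls among 21 (median 0.36). EPHA4 read 2646, 2613 and 2432 with Dox, against 423, 460.5 and 416 at d0 (2.52 ± 0.13), EPHA7 read 1444, 1503 and 1401 with Dox, against 757, 747 and 745 at d0 (0.94 ± 0.18), and the ligand EFNA5 read 2399, 2392 and 2274 with Dox, against 1103, 1226 and 1079 at d0 (1.04 ± 0.071). Receptors and a ligand of the A class were thus higher in the same arrays. Semaphorins, plexins and neuropilins counted 7 rises and 0 falls among 31 (median 0.18; 6 and 1 after centring on the median gene). PLXNC1 read 379, 375 and 322 with Dox, against 151, 156 and 152 at d0 (1.15 ± 0.088), and the ligand SEMA6D read 875, 827 and 911 with Dox, against 448, 435 and 311 at d0 (1.11 ± 0.14). SLIT, ROBO, netrin and UNC5 genes counted 6 rises and 1 fall among 17 (4 to 6 and 0 with 1 array left out), of which the ligand SLIT2 read 691, 679 and 759.7 with Dox, against 460.2, 481 and 492 at d0 (0.56 ± 0.094, named after its values were seen).

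Leucine-rich repeat membrane proteins, many of them organisers of synapses, counted 8 rises and 1 fall among 32 (median 0.14). LRRN3 and SLITRK5 led (3.30 ± 0.084 and 2.93 ± 0.075). FLRT3, a partner of UNC5 and FGF receptors, read 2228, 2262 and 2220.0 with Dox, against 622, 474 and 541 at d0 (2.01 ± 0.19). AMIGO2 was the fall, at 1522, 1622 and 1553 with Dox, against 2871, 2803 and 2752 at d0 (-0.84 ± 0.076). Among cadherins and unclustered protocadherins, the adhesion proteins that hold like cells together, 13 of 44 rose and 2 fell (median 0.31). PCDH8 read 2704, 2778 and 2728 with Dox, against 424, 498 and 389 at d0 (2.61 ± 0.16) and CDH6, a cadherin of neural plate and kidney, read 878, 831 and 792 with Dox, against 387, 394 and 371 at d0 (1.09 ± 0.084). FAT3, a giant protocadherin, read 658, 522 and 499 with Dox, against 1186, 1179 and 1074 at d0 (-1.02 ± 0.15). E-cadherin, CDH1, had means of 10866 with Dox and 13191 at d0 and missed the threshold (-0.28, adjusted p = 0.0531), and N-cadherin, CDH2, of 7801 with Dox and 6841 at d0 (0.19, adjusted p = 0.0760). CDH6, CDH1 and CDH2 were named after their values were seen. Of 33 clustered protocadherins, whose sequences are alike enough for signals to be shared, 3 rose and 0 fell. Claudins, of tight junctions, counted 0 rises and 2 falls among 20, of which CLDN7 read 1834, 1923 and 1838 with Dox, against 3684, 3750.4 and 3976 at d0 (-1.02 ± 0.11), and keratins 1 and 1 among 44 (0 to 1 of each with 1 array left out).

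Channels and receptors of excitable cells were mostly dim. Of potassium channels 9.88% were called either way, and of GABA and glutamate receptors 7.69%, against 12.9% of all genes. Whether these shares differ was not tested. Potassium channels counted 6 rises and 2 falls among 81 (4 and 7 after centring on the median gene, and 1 to 3 falls with 1 array left out), with a median intensity of 39.6 with Dox and 37.6 at d0. KCNS3, a modulatory subunit, read 469, 496 and 405 with Dox, against 788, 772 and 777 at d0 (-0.76 ± 0.11), and KCNN3, a calcium-activated channel, read 53.1, 67.0 and 57.2 with Dox, against 4.74, 15.3 and 2.24 at d0, the d0 arrays lying under the pseudocount. GABA and glutamate receptors counted 1 rise and 2 falls among 39 (0 to 1 rise with 1 array left out).

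Matrix genes went both ways. Collagens counted 8 rises and 4 falls among 43, but 4 and 6 after centring on the median gene, and 4 rises and 5 falls without the second array with Dox. COL13A1, a transmembrane collagen, read 2315, 2232 and 2352 with Dox, against 1251, 1198 and 1249 at d0 (0.89 ± 0.076), and COL2A1, of cartilage and early embryonic matrix, read 1243, 1236 and 1263 with Dox, against 889.8, 682 and 721 at d0 (0.70 ± 0.12). COL23A1, another transmembrane collagen, read 318, 304 and 362 with Dox, against 463, 525 and 558 at d0 (-0.63 ± 0.13). Laminins, of basement membranes, counted 3 rises and 1 fall among 10, of which LAMA5 read 2726, 2818 and 3088 with Dox, against 2102, 1848 and 1989 at d0 (0.54 ± 0.088) and LAMA1 4035, 3937 and 3806 with Dox, against 3067, 2880.3 and 3019.5 at d0 (0.39 ± 0.069). Integrins counted 2 rises and 3 falls among 25 (1 to 2 rises with 1 array left out). ITGB5, a receptor subunit for vitronectin, read 6678, 6635 and 6802 with Dox, against 10219, 9035 and 11236 at d0 (-0.59 ± 0.086). Metalloproteinases and their inhibitors counted 4 rises and 3 falls among 49 (1 to 3 falls with 1 array left out). These shares, 8.16% and 6.12%, were near those over all genes (7.75% and 5.16%). MMP9, a gelatinase, read 873, 895 and 912 with Dox, against 1643, 1509 and 1495 at d0 (-0.78 ± 0.074), and TIMP1, its inhibitor, read 4894, 4912 and 5182 with Dox, against 3084, 2974 and 3657 at d0 (0.63 ± 0.092). The protease was lower and the inhibitor higher on every array with Dox. Proteoglycans counted 6 rises and 2 falls among 27 (median 0.22), and 3 rises and 1 fall without the first array at d0. SDC2, a syndecan, read 7001, 7184 and 7094 with Dox, against 3831, 3864 and 4009 at d0 (0.86 ± 0.060), and CD44, the hyaluronan receptor, read 410.4, 430.5 and 383 with Dox, against 641, 611 and 561 at d0 (-0.55 ± 0.078).

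Glycosylation genes did not move as a block. Of 19 GALNT enzymes, which add the first sugar of O-glycans, 2 rose and 1 fell (median 0.010; 1 to 2 of each with 1 array left out). GALNT16 read 2586, 2681 and 2815 with Dox, against 153, 164 and 127 at d0 (4.05 ± 0.094, adjusted p = 3.01e-08), a 16.6-fold rise, while GALNT3 read 1507, 1551 and 1515 with Dox, against 4169, 3898 and 3568 at d0 (-1.34 ± 0.19, adjusted p = 0.00140). Both genes were called, in opposite directions. Sialyl- and fucosyltransferases, which cap glycans, counted 6 rises and 2 falls among 28 (1 to 2 falls with 1 array left out). FUT8, of core fucosylation, read 2918, 3103 and 3119 with Dox, against 1567, 1505 and 1433 at d0 (1.01 ± 0.069), and ST8SIA2, which makes the polysialic acid of NCAM1, read 201, 171 and 161 with Dox, against 68.0, 74.6 and 97.5 at d0 (1.02 ± 0.14). NCAM1 itself, a neural adhesion protein, read 894, 915 and 863 with Dox, against 415, 399 and 417 at d0 (1.09 ± 0.066). Enzymes of heparan sulfate counted 4 rises and 3 falls among 21 (1 to 2 falls with 1 array left out), among them a rise of SULF2, a sulfatase (0.40 ± 0.056), and a fall of HS3ST3A1, a sulfotransferase (-0.58 ± 0.10).

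**Figure D4:**
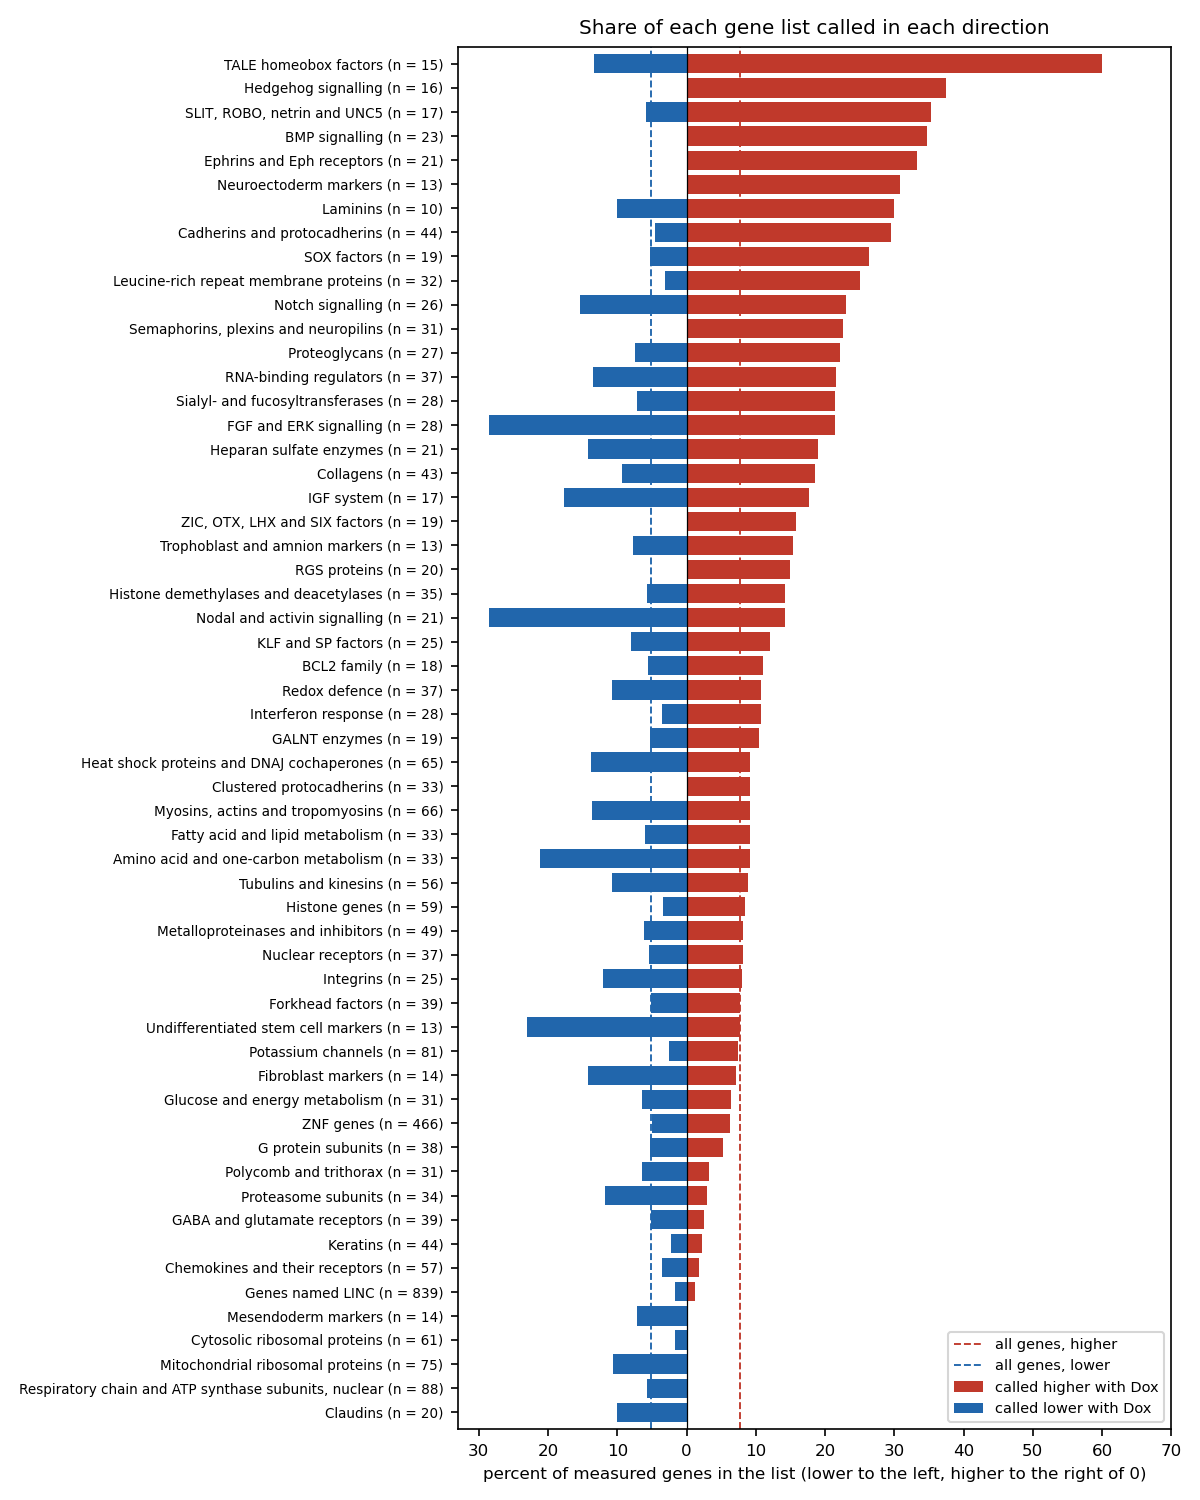
Percent of the measured genes of each of 57 lists that were called higher (red, right of 0) and lower (blue, left of 0) with Dox, with the number measured after each name and the shares over all genes as dashed lines (7.75% and 5.16%). TALE homeobox factors stand at 60.0% higher, and mitochondrial ribosomal proteins, respiratory subunits and claudins have 0 genes called higher.

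RNA-binding regulators counted 8 rises and 5 falls among 37 (median 0.065), with 5 to 7 rises on leaving out 1 array. Both directions held genes of stem cells or of neurons. ELAVL2, a stabiliser of neuronal mRNA, read 665, 742 and 707 with Dox, against 1539.9, 1530.5 and 1447 at d0 (-1.08 ± 0.082), and RBM47, an editing and splicing factor of endoderm, read 1933, 1968 and 1810.2 with Dox, against 3509.7, 3205 and 3458 at d0 (-0.83 ± 0.12). RBPMS2 read 5992, 6845 and 6389 with Dox, against 11158, 9976 and 10861 at d0 (-0.73 ± 0.11). RBM24, a splicing factor of muscle and heart, read 462, 472 and 519 with Dox, against 224, 218 and 263 at d0 (1.00 ± 0.095). Polycomb and trithorax genes, which keep chromatin silent or active, counted 1 rise and 2 falls among 31 (0 to 1 and 1 to 3 with 1 array left out), of which PHC1, a Polycomb subunit that is bright in stem cells, read 4342, 4677 and 4623 with Dox, against 7411, 7492 and 6970.0 at d0 (-0.68 ± 0.064). Histone demethylases and deacetylases counted 5 rises and 2 falls among 35, but 2 to 3 rises and 1 fall with any 1 array left out. Of 59 histone genes 5 rose and 2 fell (0 to 2 falls with 1 array left out), and the rises included both macroH2A variants, which mark silent chromatin. MACROH2A2 read 846, 961 and 931 with Dox, against 487, 473 and 536 at d0 (0.85 ± 0.079) and MACROH2A1 read 7036, 7316 and 7568 with Dox, against 5086, 4455 and 5561 at d0 (0.54 ± 0.082).

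Ribosomal and respiratory genes were seldom called higher, where 7.75% of all genes were. Of 61 cytosolic ribosomal proteins 0 rose and 1 fell (1.64%). Of 88 nuclear genes of the respiratory chain and ATP synthase, assembly factors included, 0 rose and 5 fell (9 after centring on the median gene, and 2 to 5 with 1 array left out). Those 5 falls, or 5.68%, were near the share over all genes (5.16%). Of 75 mitochondrial ribosomal proteins 0 rose and 8 fell (10.7%), with a median of -0.12 and 14 falls after that centring. Without the third array with Dox, or without the first at d0, 0 of these 8 falls were called, and leaving out another array left 2 to 7. NDUFAF2, an assembly factor of complex I, read 1406, 1429 and 1370.0 with Dox, against 1882, 1721 and 1823 at d0 (-0.36 ± 0.062). Proteasome subunits counted 1 rise and 4 falls among 34 (1 to 2 and 2 to 3 with 1 array left out), and PSMB10, a subunit of the immunoproteasome, read 376, 420.1 and 369 with Dox, against 687, 653 and 512 at d0 (-0.64 ± 0.11). Heat shock proteins and DNAJ cochaperones counted 6 rises and 9 falls among 65 (3 to 5 and 5 to 7 with 1 array left out), 1 of the rises being HSPG2, a proteoglycan that the name pattern took in. Its call was lost on leaving out any array but the third with Dox (adjusted p of 0.0815 to 0.142). HSPA4 read 3855, 3949.7 and 3802 with Dox, against 5702, 5396 and 5688 at d0 (-0.53 ± 0.080), HSPB1 fell by 0.55 and DNAJB6 by 0.69 on the log2 scale, whereas DNAJB9, a cochaperone of the endoplasmic reticulum, rose (0.57 ± 0.082).

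Amino acid and one-carbon genes counted 3 rises and 7 falls among 33 (median -0.11). Both chains of a large amino acid transporter fell: SLC7A5 read 4170.3, 4308 and 4528 with Dox, against 7136, 6687 and 6931 at d0 (-0.67 ± 0.059) and SLC3A2 read 1914, 1849 and 2011 with Dox, against 2839.6, 2919 and 2859 at d0 (-0.57 ± 0.093). CBS, which makes cystathionine from homocysteine, read 2020.3, 1521 and 2240.4 with Dox, against 3878, 3685 and 3603 at d0 (-0.96 ± 0.15), and ASS1, of arginine synthesis, rose (0.61 ± 0.072). Glucose and energy genes counted 2 rises and 2 falls among 31 (1 to 5 rises with 1 array left out, and 4 falls after centring on the median gene). Each share, 6.45%, was near that over all genes (7.75% higher and 5.16% lower). PDK1, which restrains pyruvate oxidation, read 2573, 2871 and 2532 with Dox, against 4606, 4777 and 4931 at d0 (-0.84 ± 0.082), HK1, a hexokinase, fell 1.51-fold, and SLC6A8, the creatine transporter, read 2230.2, 2269 and 2084 with Dox, against 1178, 1076 and 1226 at d0 (0.91 ± 0.071). Fatty acid and lipid genes counted 3 rises (9.09%) and 2 falls (6.06%) among 33, also near those shares (3 to 5 rises with 1 array left out). CPT1C was up (0.66) and the carrier FABP5 down (-0.56). Redox genes counted 4 and 4 among 37. TXNIP, which binds thioredoxin and limits glucose uptake, read 3439, 3663 and 3639.9 with Dox, against 1233, 1115 and 1317 at d0 (1.54 ± 0.081), and GSTO1, a glutathione transferase, read 5676, 6126 and 5755 with Dox, against 8544, 7731 and 9011 at d0 (-0.52 ± 0.080).

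In the BCL2 family, which decides on cell death, 2 of 18 genes rose and 1 fell (1 to 3 falls with 1 array left out). PMAIP1, or NOXA, a death-promoting member that is abundant in stem cells, read 7171, 6905 and 7589.7 with Dox, against 13073, 12697 and 14849 at d0 (-0.90 ± 0.081). BMF and BIK, death-promoting as well, rose (0.70 ± 0.095 and 0.74 ± 0.13). Tubulins and kinesins counted 5 rises and 6 falls among 56 (2 to 8 and 3 to 5 with 1 array left out, and 3 and 8 after centring on the median gene). TUBB6 read 4043, 3971 and 3965 with Dox, against 7227, 6738 and 7312 at d0 (-0.83 ± 0.060) and TUBA4A fell 1.76-fold. Myosins, actins and tropomyosins counted 6 rises and 9 falls among 66 (2 to 4 and 5 to 8 with 1 array left out, and 3 and 13 after centring on the median gene). ACTA1, skeletal actin, read 1025, 969 and 985 with Dox, against 2013, 2517 and 2406 at d0 (-1.20 ± 0.088) and ACTG2, of smooth muscle, read 523, 485 and 569.5 with Dox, against 959, 993 and 965 at d0 (-0.87 ± 0.075), although actin genes are near-identical and may share signal. Genes named LINC were largely at the floor, with 333 of 839 under 16 in both groups, and counted 10 rises and 14 falls, but 7 and 24 after centring on the median gene, and 6 to 11 and 6 to 17 with 1 array left out. LINC00173 read 697, 691 and 858 with Dox, against 381, 397 and 362 at d0 (0.94 ± 0.11).

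Markers were set beside these results to show which cells the arrays held. Of 13 markers of undifferentiated stem cells, 1 rose and 3 fell. There were 0 rises and 6 falls after quantile normalization or centring on the median gene, and 1 and 7 with a pseudocount of 64. The rise was that of SOX2, whose call was lost on leaving out any array. The falls were those of NANOG (-1.09), L1TD1 (-0.68) and ZFP42 (-0.64). That of ZFP42 was lost without the first or the third array with Dox and on the 6 arrays alone. The summed intensity of the 13 markers was 166374 to 174640.4 with Dox and 180549 to 195117 at d0, lower on every array with Dox but bright in both groups. Of 13 neuroectoderm markers 4 rose and 0 fell (1 after centring on the median gene), and the sum of the 13 was 10515 to 10718 with Dox and 8696 to 9205 at d0. Most of this sum was CDH2, which was not called, so the sum says little of the other markers. The 4 rises were NCAM1, DCX, SIX3 and LHX2, of which SIX3 was lost on the mean of its probe sets (adjusted p = 0.132) and LHX2 without the first array with Dox (0.0647). The defining neural factors stayed dim: PAX6 had means of 82.2 with Dox and 54.6 at d0 (adjusted p = 0.275) and SOX1 of 41.1 with Dox and 30.2 at d0 (adjusted p = 0.821). Mesendoderm markers counted 0 rises and 1 fall (CXCR4, lost on the mean of its probe sets at an adjusted p of 0.0633) among 14 (1 to 2 falls with 1 array left out), with a sum of 2120.4 to 2569 with Dox and 3303 to 3579 at d0. Trophoblast and amnion markers counted 2 rises (TFAP2A and GATA3) and 1 fall (IGFBP3) among 13, with a sum of 4488 to 4824 with Dox and 4494 to 5102 at d0 and CGA and CDX2 under 16 in both groups. Fibroblast markers counted 1 rise and 2 falls among 14 (S100A4 up, THY1 and COL6A3 down, the last lost on leaving out any array but the second with Dox, at an adjusted p of 0.0898 to 0.135), with a sum of 35800 to 36784 with Dox and 33311 to 34969 at d0. No marker list measured the share of cells of a type, and the part of such cells in the results was not tested.

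The same genes were then followed to day 6, on the 6 arrays of differentiating cells. There the probe sets of NR6A1 go against the labels in part: the one most induced at d0 read 29.2 ± 13.7 on the Dox-labelled and 336 ± 70.9 on the RA-labelled arrays, while the brightest read 1009 ± 223 on the Dox-labelled and 528 ± 37.8 on the RA-labelled arrays. All directions at day 6 rest on the labels as they stand. Over all genes, 13.7% were higher and 12.2% lower on the Dox-labelled than on the RA-labelled arrays. Of all 1532 rises 333 (21.7%) were higher and 448 (29.2%) lower on the Dox-labelled arrays, and of the 1020 falls 326 (32.0%) were higher and 176 (17.3%) lower. The larger rises divided otherwise: of the 226 genes that rose at least 2-fold at d0, 78 (34.5%) were higher and 45 (19.9%) lower on the Dox-labelled arrays. The larger falls leaned the same way as all falls: of 139 at least 2-fold, 37 (26.6%) were higher and 24 (17.3%) lower. Of the 25 largest rises 11 were higher, 10 lower and 4 not called. Of the 25 largest falls 8 were higher, 4 lower and 13 not called. The day 6 comparison shares no array with that at d0, but both tests used the same estimate of each gene's spread, from all 12 arrays. A gene with a small spread is thus called more easily in both. The part of this in the shares above was not tested.

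Of the 25 largest falls, 22 were below their d0 mean in both day 6 groups. The falls were picked partly for a high d0 mean, which favours lying below it later. GDF3 had means of 59.3 ± 23.6 on the Dox-labelled and 58.0 ± 13.4 on the RA-labelled arrays and NPY1R of 154 ± 18.6 on the Dox-labelled and 45.6 ± 3.12 on the RA-labelled arrays. Of the 25 largest rises, 13 were above their d0 mean in both day 6 groups and 4 below it in both, and 17 lay below their mean with Dox at d0 in both. These are counts with no test, and no share over all genes was taken beside those of the falls or the rises. The RA-labelled cells had no Dox. PCDH8 had means of 27.9 ± 10.1 on the Dox-labelled and 191 ± 23.0 on the RA-labelled arrays, below its d0 arrays, and SOX2-OT of 32.5 ± 10.9 on the Dox-labelled and 70.5 ± 5.06 on the RA-labelled arrays. MEIS2 went on to 13459 ± 569 on the Dox-labelled and 2148 ± 42.3 on the RA-labelled arrays (log2 difference 2.64, adjusted p = 5.34e-07). PKDCC and LRP2 were nearer their level with Dox on the Dox-labelled arrays, PKDCC at 5317 ± 480.5 on the Dox-labelled and 883 ± 188 on the RA-labelled arrays (2.58) and LRP2 at 937 ± 48.6 on the Dox-labelled and 91.6 ± 20.6 on the RA-labelled arrays (3.16). GALNT16 and DYRK3 were the other way round, GALNT16 at 370.2 ± 13.4 on the Dox-labelled and 8816 ± 643 on the RA-labelled arrays (-4.51) and DYRK3 at 185 ± 43.8 on the Dox-labelled and 1368 ± 229 on the RA-labelled arrays (-2.79). HEY1, which fell at d0, stood at 3171 ± 81.2 on the Dox-labelled and 1183 ± 56.8 on the RA-labelled arrays (1.41).

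**Figure D5:**
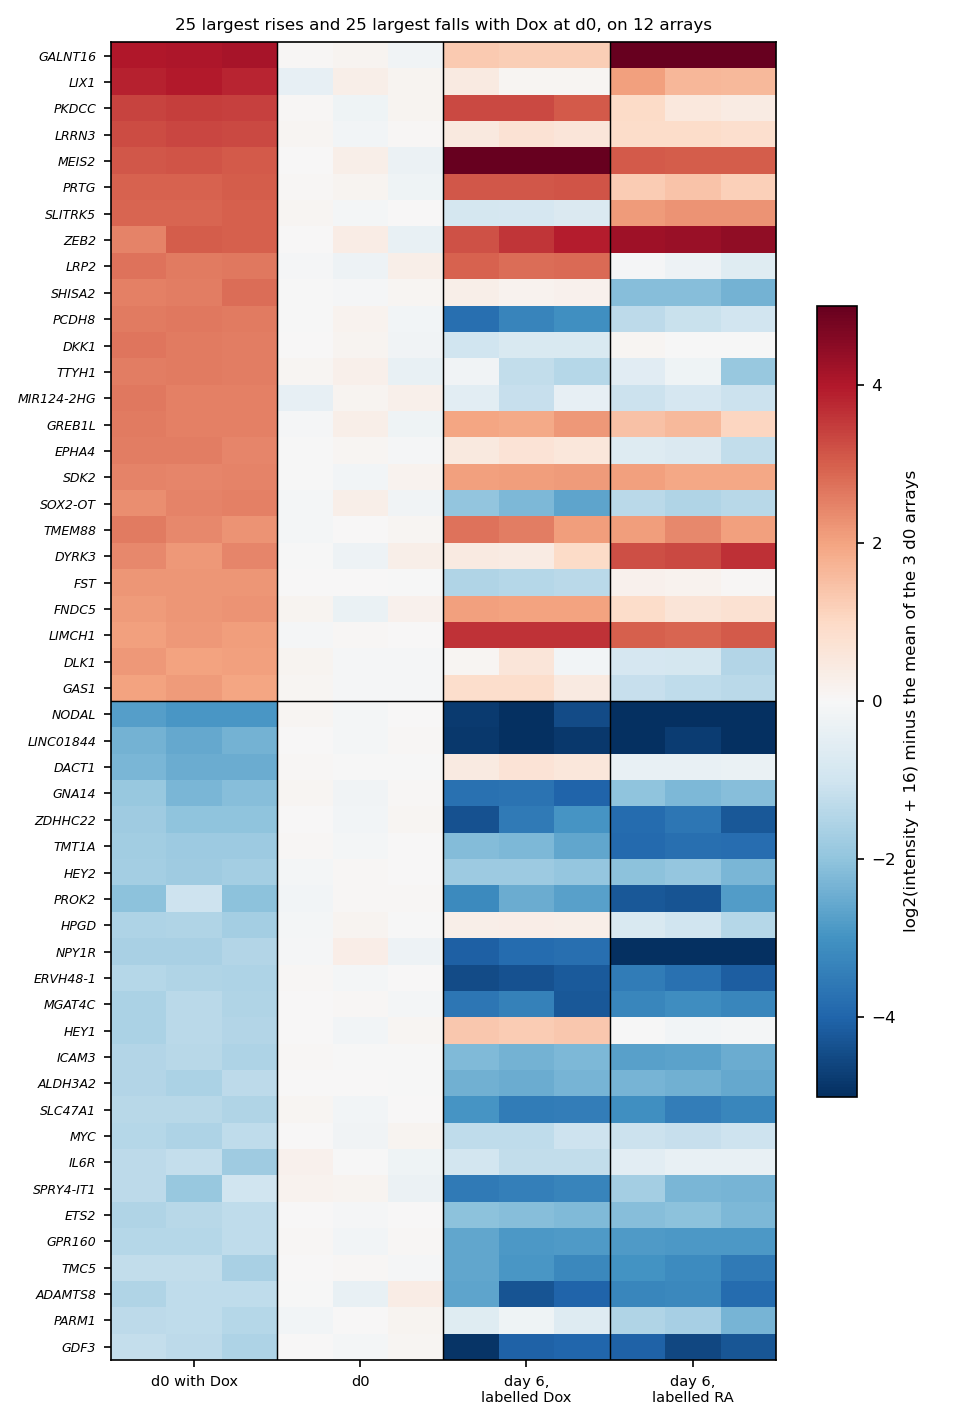
Log2(intensity + 16) minus the mean of the 3 d0 arrays, for the 25 largest rises (upper block) and 25 largest falls (lower block) with Dox at d0, on all 12 arrays. Columns run d0 with Dox, d0, day 6 labelled Dox and day 6 labelled RA, and colours are limited to 5 on either side of 0. The falls are blue in nearly all day 6 columns, while the rises are red in some and blue in others.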

How the data were processed

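RNA was labelled with biotin, per the labels' protocols, and the deposited values are linear intensities of 54675 probe sets on 12 arrays. No source used here states the authors' background correction or probe summary. With 2% of probe sets left out at each end, the mean was 500.1 on each array, so levels are relative within an array. Symbols came from the platform's annotation (41097 probe sets with 1 symbol, 1801 with several, 11777 not listed), updated for 41043 through the gene ID. Of the probe sets with 1 symbol, the one brightest on average over the 12 arrays stood for its gene. The test was limma 3.58.1 (lmFit and eBayes, R 4.3.3) on log2(intensity + 16), a scale on which changes of dim genes come out too small. It was fitted to all 12 arrays by group, which leaves 8 residual degrees of freedom. P-values were adjusted by Benjamini-Hochberg over 19775 genes (over all probe sets for NR6A1), at 0.05. The procedure was tested on simulated data. Groups and replicate numbers came from the sample titles.

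The members, the 58 gene lists (57 with a measured gene, 3108 genes in all) and the tests were chosen with earlier results of these data known. Lists are described by counts and medians, with no test. The rule for named genes took NR6A1, the 25 largest rises and 25 largest falls, and the 5 largest linear gains and losses, among called genes whose groups did not overlap and whose higher mean reached that of the median gene (245.5). It also took up to 3 rises and 3 falls of each list, 278 genes in all. Other genes are said to be named after their values were seen. The alternatives were the 6 arrays alone, leaving out each array, the replicate number as a block, pseudocounts of 1 and 64, quantile normalization, centring on the median, averaging all probe sets of a gene, keeping genes at or above the median mean, and a trended robust variance. Centring on the median gene was added after seeing the data. Replicate numbers do not pair these arrays: deviations of same-numbered arrays correlated at -0.00843, 0.00985 and 0.0248. Array batches were not analysed here.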

Additional observations from a re-analysis of the deposited data

Results flagged for a closer look

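Probe sets without a single gene symbol entered none of the gene comparisons, and some of them differed between the groups. Of 13522 such probe sets, 214 were higher and 170 lower with Dox, and 55 of the rises and 46 of the falls were at least 2-fold (limma, adjusted over all probe sets). A probe set shared by ID2 and ID2B read 1450.2 ± 153 with Dox and 400.5 ± 118 at d0 (log2 fold change 1.86 ± 0.20), and one shared by CYP2B6 and CYP2B7P, a cytochrome P450 gene and its pseudogene, read 81.0 ± 32.8 with Dox and 393 ± 30.6 at d0 (-2.14 ± 0.34). Probe sets that the annotation does not list are unnamed here, among them one that read 366 ± 57.9 with Dox, against 32.1 ± 29.3 at d0 (3.14 ± 0.32).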

How the results depend on the processing

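The 2552 calls became 1522 (891 rises and 631 falls) on the 6 arrays alone, which have fewer arrays to estimate the spread, and 967 genes rose, against 1532, when probe sets of a gene were averaged, for which the cause was not tested. With each array left out in turn, 1786 to 2323 genes were called, 1060 to 1422 of them higher and 692 to 901 lower. With the replicate number as a block, which is not a pairing in this design, 2296 were called. NR6A1 had 5 to 7 of 7 probe sets called higher over its alternatives. Of the 278 named genes, all called, 159 kept the call in each of the up to 16 alternatives that test them, as did 45 of the 50 largest changes. When probe sets were averaged IGF2BP1 (-0.011), ACKR3 (-0.023) and ACTA2 (-0.12), which had risen, lay below 0 and were not called. Genes dim in both groups limit the result: 2445 had both means under 16, of which 7 were called.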
